A study of Mus musculus with 9 samples.

Results

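Pttg1 encodes securin, the protein that holds back the separation of sister chromatids. In left ventricle of wild-type mice its mRNA stood at 46.2 to 76.7 CPM (read counts scaled to a common library size), and in left ventricle of mice lacking delta-sarcoglycan it stood at 1.66 to 2.46 CPM. It is 1 gene of 49671 gene identifiers in the count tables and of 15261 genes that passed a filter on low counts. The gene was chosen by this difference between the genotypes, so the difference is given as a description with no test. Tests are reported only for ifetroban, for the interaction of genotype and ifetroban, and for other genes.

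Securin binds separase, the protease that cuts the cohesin ring around paired chromatids, and keeps it inactive until anaphase. At the end of metaphase the anaphase-promoting complex (APC/C), a ubiquitin ligase with its activator CDC20, marks securin for degradation, and separase is released. Securin was first described as the pituitary tumor transforming gene, and it is most abundant in dividing cells. Most cardiomyocytes of an adult ventricle no longer divide, so cell cycle transcripts in such tissue come largely from other cells or from rare cycling cells.

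The study sequenced polyadenylated RNA of left ventricle in 9 libraries. There were 2 WT vehicle and 2 WT ifetroban libraries from wild-type mice, and 2 KO vehicle and 3 KO ifetroban libraries from mice that the labels call dSG knockout. Delta-sarcoglycan, the product of Sgcd, is a membrane protein of the dystrophin-associated complex in muscle, and ifetroban blocks the thromboxane-prostanoid receptor. Strain, age, sex, dose, duration and the knockout allele are not given in the sources used here. The labels do not say whether each library is a different animal, and the p-values therefore reflect only the spread among these libraries, part of which may be technical.

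Pttg1 (ENSMUSG00000020415) lies on the minus strand of chromosome 11, from 43420250 to 43426251 on GRCm38, and has 10 annotated transcripts, 7 of them protein-coding. Transcript Pttg1-202 has 6 exons and codes for 199 residues. Its exon 3 holds the only match in the coding sequence to the destruction box (an arginine, any pair of residues, then a leucine). The destruction box is a degradation signal by which the APC/C recognises substrates. The matching stretch, read from the annotation and not a result of these libraries, is shown because APC/C genes are described below. It lies at chr11:43424794-43424823 on the minus strand, in the GENCODE transcript sequence, with codons 58 to 61 in capitals.
Pttg1-202: aaagccagcAGAAAGGCTTTGgggacagtc
Such a short match is common: 44 of 70 genes with a coding transcript of 199 codons (62.9%) held 1 or more. No transcript of another gene matched a Pttg1 transcript in a blastn search, so no near-identical copy in the annotation could share its reads.

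The libraries need a short account before the values. Each library had between 21299748 and 31394548 reads in genes. Sgcd, the targeted gene, stood at 28.9, 33.1 and 31.2 CPM in 3 WT libraries and at 7.49 to 18.5 CPM in the KO libraries. The library labelled WT vehicle replicate 1 had only 11.1 CPM, inside the KO range and against its label in this gene. In Cyfip2, another gene of chromosome 11, it held 194 CPM, against 17.5 to 44.9 CPM in the KO libraries. Which exons the knockout lacks is not given, so the reads left in the KO libraries do not check the allele. The libraries also split by transcript length, measured as the Spearman correlation across genes between exonic length and the deviation from the mean. It was -0.417 to -0.29, with long transcripts low, in KO ifetroban replicate 1, in KO vehicle replicates 1 and 2 and in the library labelled WT vehicle replicate 1. In the other 5 it was 0.302 to 0.386. Sgcd in the KO libraries held 7.49, 12.1 and 9.77 CPM where long transcripts were low. It held 16.4 and 18.5 CPM where they were high. Whether Sgcd follows this split was not tested. Cardiomyocyte markers (6 of 6 detected) summed to 53200 to 58500 CPM in WT and 40600 to 52500 CPM in KO libraries, and atrial markers to at most 2.62 CPM in any library. Fibroblast markers (4 of 4 detected) summed to 558 to 588 CPM in WT and 671 to 948 CPM in KO, and macrophage markers (4 of 4) to 87.2 to 111 CPM in WT and 155 to 193 CPM in KO. Liver markers (3 of 3) reached 74.3 CPM in KO against at most 1.59 CPM in WT libraries. The part of these shifts in the results below was not tested.

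Pttg1 was abundant in every wild-type library. The library labelled WT vehicle replicate 1 held 1495 reads, or 76.7 CPM (exact Poisson 95% interval 72.9 to 80.7), and WT vehicle replicate 2 held 1203 reads, or 46.5 CPM (43.9 to 49.2). The WT ifetroban libraries held 1215 reads, or 46.6 CPM (44.0 to 49.3), and 1167 reads, or 46.2 CPM (43.6 to 49.0). Thus 3 of the 4 WT libraries lay within each other's counting intervals, and 1 lay above them. These intervals cover counting error only.

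Every knockout library held few Pttg1 reads, but none held 0. The KO vehicle libraries had 37 reads, or 1.72 CPM (1.21 to 2.37), and 62 reads, or 2.46 CPM (1.89 to 3.16). The KO ifetroban libraries had 42 reads, or 1.96 CPM (1.42 to 2.65), 54 reads, or 1.66 CPM (1.24 to 2.16), and 50 reads, or 1.94 CPM (1.44 to 2.56). The 5 counting intervals overlapped one another, so no order among the KO libraries could be read at this depth.

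**Figure D1:**
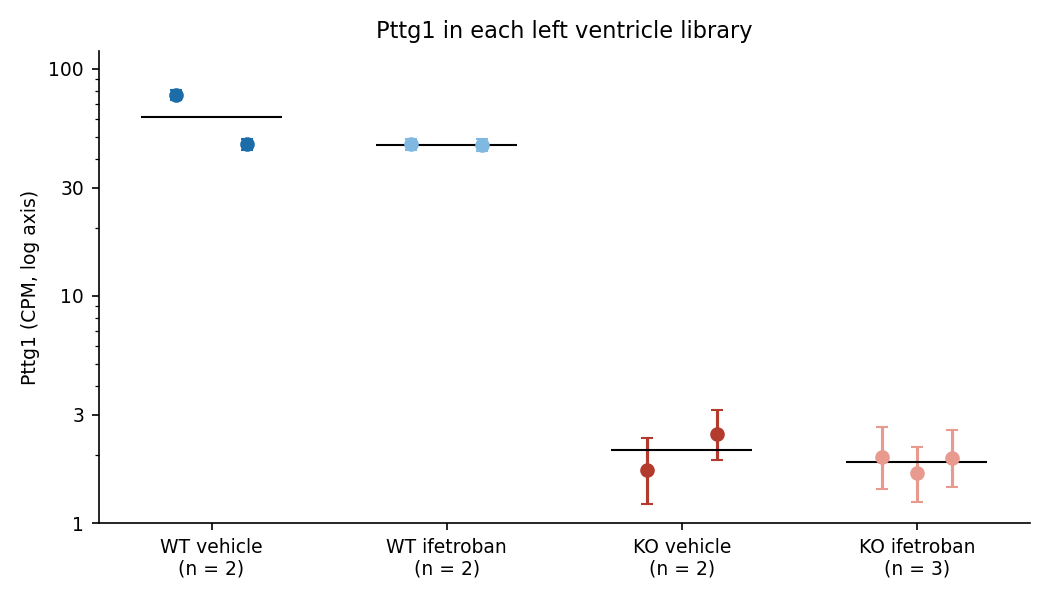
Pttg1 in CPM on a log axis, 1 point per library with its exact Poisson 95% interval (counting error only), by genotype and treatment; black lines are group means. The 4 WT libraries sit between 46.2 and 76.7 CPM and the 5 KO libraries between 1.66 and 2.46 CPM.

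By group, Pttg1 stood highest in WT vehicle at 61.6 ± 21.4 CPM (SD, n = 2), then in WT ifetroban at 46.4 ± 0.258 CPM (n = 2). It followed in KO vehicle at 2.09 ± 0.524 CPM (n = 2) and in KO ifetroban at 1.85 ± 0.171 CPM (n = 3). Neighbours in this order within a genotype differed by less than the larger SD of the pair. The step between the genotypes had no overlap: the lowest WT library held 18.8 times the CPM of the highest KO library. The KO mean was 3.39% of the WT mean with vehicle and 3.99% with ifetroban. In bulk tissue, fewer cells of a type and less RNA per cell cannot be told apart.

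In the edgeR model, Pttg1 in KO vehicle was lower than in WT vehicle by a log2 difference of -4.87 ± 0.298 (SE), in KO ifetroban lower than in WT ifetroban by -4.65 ± 0.25, and on average over treatments by -4.76 ± 0.198. Among the 15261 genes tested, 0.537% were called for the averaged difference at an adjusted p under 0.05, 0.0328% as lower and 0.505% as higher in KO. Within the 4 libraries with long transcripts low (1 WT, 3 KO) the difference in mean log2 CPM was -5.19, and within the 5 with long transcripts high (3 WT, 2 KO) it was -4.63. The vehicle difference was -4.24 when KO vehicle replicate 1 and the wild-type library that goes against its label in Sgcd were both left out.

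Per kilobase of exonic sequence, Pttg1 averaged 27.0 CPM per kb in the WT libraries, above 91.9% of the 15230 tested genes with a length. In the KO libraries it averaged 0.974 CPM per kb, above 28.5% of them. Among Pttg1 and 84 tested genes of chromatid separation and the cell cycle, it ranked 2 of 85 by level per length in WT, behind the APC/C subunit Anapc5 at 30.6 CPM per kb, and 44 of 85 in KO. Separase (Espl1), its binding partner, stood at 0.144 CPM per kb in WT and 0.156 CPM per kb in KO. The APC/C activator Cdc20 stood at 0.718 and 0.939 CPM per kb. In WT ventricle the mRNA of securin was thus far more abundant per length than that of separase, and in KO ventricle it was close to that of Cdc20. The 43 proliferation genes ran from 0.0821 to 10.2 CPM per kb in WT (median 0.378) and from 0.059 to 11.1 CPM per kb in KO (median 0.369), highest for Pcna, the DNA polymerase clamp, in both. All 43 lay below Pttg1 in WT and 31 did in KO.

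Reads on the strand opposite to Pttg1 were few and followed the same pattern. They numbered 22, 21, 15 and 21 in the WT libraries, 79 in all, and 1, 0, 1, 0 and 2 in the KO libraries, 4 in all. The nearest other annotated gene is 7.49 kb away, and whether they are stray reads of the same transcripts was not tested.

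No effect of ifetroban on Pttg1 passed the test in either genotype. In wild type the log2 difference of ifetroban from vehicle was -0.41 ± 0.243 (95% interval -0.95 to 0.14, edgeR adjusted p = 0.999). The value became 0.00 without the library labelled WT vehicle replicate 1 and -0.72 without WT vehicle replicate 2, and the adjusted p ranged from 0.508 to 1.0 over the alternatives. In the knockout it was -0.19 ± 0.272 (-0.80 to 0.42, edgeR adjusted p = 0.818), with 0.13 when the class of length trend was a term and 0.10 without KO vehicle replicate 2. The intervals leave room for a fall to about these lower bounds, so they do not show that the drug had no effect.

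The interaction, the ifetroban difference in KO minus that in WT, was 0.22 ± 0.366 for Pttg1 (95% interval -0.60 to 1.04, edgeR adjusted p = 1.0). Its sign turned without the library labelled WT vehicle replicate 1 (-0.19) and without KO vehicle replicate 1 (-0.01). Over all genes edgeR called 0% for ifetroban in WT, 0% for ifetroban in KO and 0% for the interaction. At an unadjusted p under 0.05 there were 192, 766 and 211 genes, and DESeq2 called 0, 3 and 0.

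Pttg1 had the widest gap between the genotypes of any gene lower in KO. The gap is the lowest WT minus the highest KO library in log2 CPM (prior count 2), and for Pttg1 it was 4.19. All 5 KO libraries lay below all 4 WT libraries for 348 tested genes (2.28%), and above them for 768 (5.03%), where the widest gap was 2.56. A gap over 1 was found for 3 of the 348, Pttg1, Cyfip2 and the antisense gene model Gm12167, all on chromosome 11. Chromosome 11 held 7.47% of the 348 genes and 8.2% of the genes tested.

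**Figure D2:**
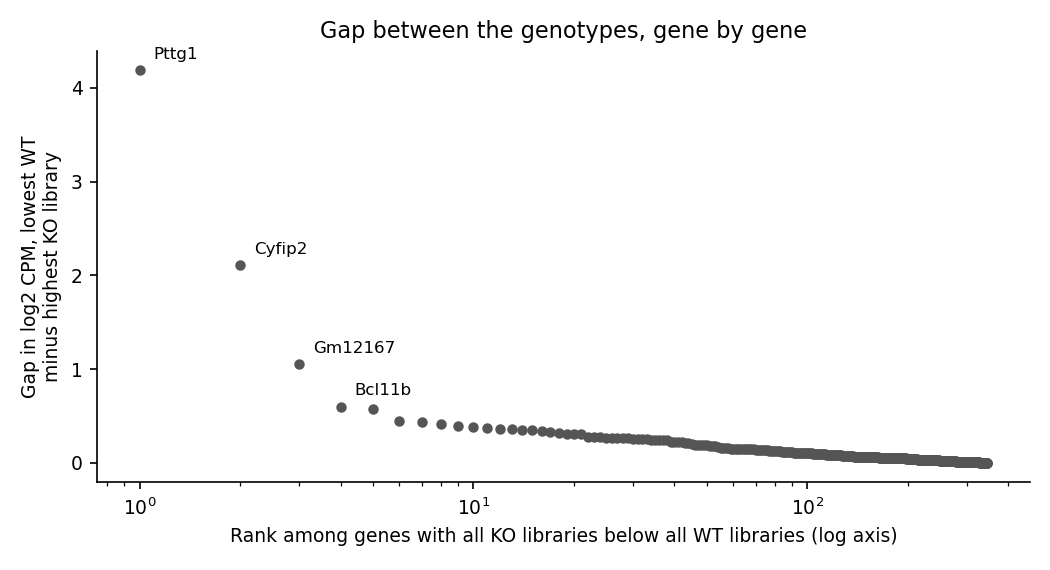
Gap between the lowest WT and the highest KO library in log2 CPM (prior count 2), in order of the gap (log axis). Shown are 346 of the 348 genes with every KO library below every WT library. The rest, with the smallest gaps, are left out. Pttg1 at 4.19, Cyfip2 at 2.11 and Gm12167 at 1.05 stand above the other genes, which start at 0.60 with Bcl11b.

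By that measure over the 9 libraries, the gene most like Pttg1 was Cyfip2, a component of the WAVE complex that drives actin branching. Cyfip2 (chromosome 11, 46193850 to 46312859) held 194, 266, 255 and 265 CPM in WT libraries and 17.5, 33.0, 25.6, 27.6 and 44.9 CPM in KO libraries. The groups did not overlap, and its gap of 2.11 was smaller than that of Pttg1. Its averaged log2 difference was -3.09 ± 0.243 (edgeR adjusted p = 0.00185), and it was called in each fit that left out 1 library (adjusted p 0.00049 to 0.0158). Next came Bcl11b, a zinc finger transcription factor (gap 0.60), the synaptic vesicle protein gene Sv2c (0.57), the proteasome phosphatase gene Ublcp1 (0.45) and Lrtm1 (0.42). Myh7b, a myosin heavy chain gene, had 0.40, the muscle chloride channel gene Clcn1 0.39 and Mettl11b 0.37. Of these 8 genes only Cyfip2 and Ublcp1 are on chromosome 11, and 2 gene models without a proper name that ranked among them were left out.

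Among genes other than Pttg1, 4 were called lower in KO on average, and 3 of these lay on chromosome 11 within 3 Mb of Pttg1. Besides Cyfip2 they were Ublcp1, at -0.81 ± 0.126 (edgeR adjusted p = 0.04), and Gm12167, at -2.19 ± 0.297 (adjusted p = 0.0284). Ublcp1 held 33.7, 25.7, 23.4 and 22.9 CPM in WT libraries and 14.0, 16.8, 15.3, 14.3 and 14.2 CPM in KO libraries. Gm12167, named after its values were seen, held 5.10 to 8.93 CPM in WT and 0.767 to 2.42 CPM in KO libraries. In the fits below, leaving out 1 library of a group of 2 leaves a single library in that group. Neither was called when the library labelled WT vehicle replicate 1 was left out, with an adjusted p of 0.108 for Ublcp1 and 0.101 for Gm12167. Over the 9 fits that left out 1 library each, the adjusted p ranged from 0.00505 to 0.253 for Ublcp1, called in 1 fit, and from 0.00158 to 0.171 for Gm12167, called in 2. The remaining gene, Sv2c on chromosome 13, stood at -2.07 ± 0.344 (adjusted p = 0.0451), with 0.0154 to 0.27 over those 9 fits, called in 1.

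The tested genes within 1 Mb of Pttg1 had far smaller differences, and none was called. Slu7, a splicing factor gene on the opposite strand whose nearest base is 7.49 kb away, held 34.3, 32.0, 31.9 and 30.2 CPM in WT libraries. In KO libraries it held 24.4, 29.5, 30.4, 32.2 and 29.9 CPM, and the groups overlapped. Its averaged log2 difference was -0.15 ± 0.109 (95% interval -0.40 to 0.09, edgeR adjusted p = 0.489), against -4.76 for Pttg1.

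Within 1 Mb of Pttg1, 26 genes are annotated and 6 were tested, all on the side of Slu7. Ublcp1, called lower in KO, lies just outside this window, 1.03 Mb from Pttg1. None of the 6 was called in edgeR or DESeq2 (0.537% of all genes were in edgeR). At that share, 0 of 6 says little about these genes. An unadjusted p under 0.05 was found for 2 of the 6, and for 2518 of the 15261 genes tested. Of the differences 5 were negative and 1 positive, and the median was -0.28 against 0.00 over all genes. The secreted C1q-related protein gene C1qtnf2 stood at -0.35 ± 0.198 (adjusted p = 0.399), the cyclin-like gene Ccnjl at -0.70 ± 0.404 (0.399) and Pwwp2a, for a chromatin reader, at -0.21 ± 0.14 (0.462). Ttc1 stood at 0.31 ± 0.13 (adjusted p = 0.275) and the alpha-1B adrenergic receptor gene Adra1b at -0.48 ± 0.186 (0.253). Adra1b differed by treatment in its values, at -1.08 ± 0.279 with vehicle (adjusted p = 0.241) and 0.13 ± 0.252 with ifetroban (0.979), and the interaction was 1.20 ± 0.377 (unadjusted p = 0.00994, adjusted p = 1.0). With no filter on low counts it was called for ifetroban in KO (0.96, adjusted p = 0.00182), against 0.93 ± 0.26 (0.688) with the filter. For 0 of the 6 did the genotypes separate library by library. Over all genes 2.28% separated with KO below WT and 5.03% with KO above, so 0 of 6 says little. On the other side of Pttg1, Gabrb2 had at most 21 reads in a library, and none of the other 9 annotated genes had a read.

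Within 5 Mb, 29 of 111 annotated genes were tested and 3 were called, Ublcp1, Cyfip2 and Gm12167, all lower in KO. Over all genes tested, 0.537% were called and 0.0328% were called lower. Of the 29 differences 18 were negative and 11 positive, with a median of -0.13. All 3 lie among the 22 tested genes between Pttg1 and Sgcd, whose nearest base is 3.47 Mb from Pttg1. Sgcd itself stood at -1.07 ± 0.292 (edgeR adjusted p = 0.13), and at -1.34 (adjusted p = 0.107) without the library labelled WT vehicle replicate 1. Pttg1 thus differed by more on the log2 scale than the targeted gene, and genes with differences near 0, such as Rnf145 at 0.07 ± 0.124 (adjusted p = 0.792) and Clint1 at -0.01 ± 0.106 (0.977), lay between them; these examples were picked after their values were seen.

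**Figure D3:**
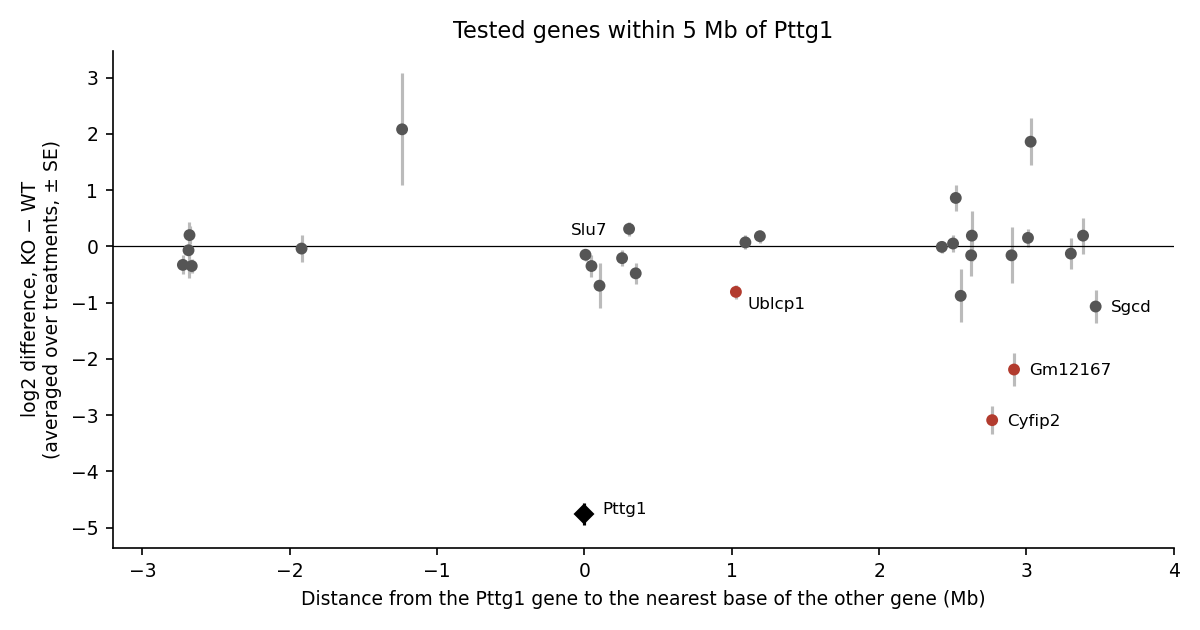
Averaged log2 difference (KO minus WT, ± SE) of Pttg1 (black diamond) and of the 29 tested genes within 5 Mb, by distance in Mb from Pttg1 to the nearest base of each gene; red points were called at an adjusted p under 0.05. Slu7 beside Pttg1 lies near 0, and the 3 red points lie between Pttg1 and Sgcd.

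**Figure D4:**
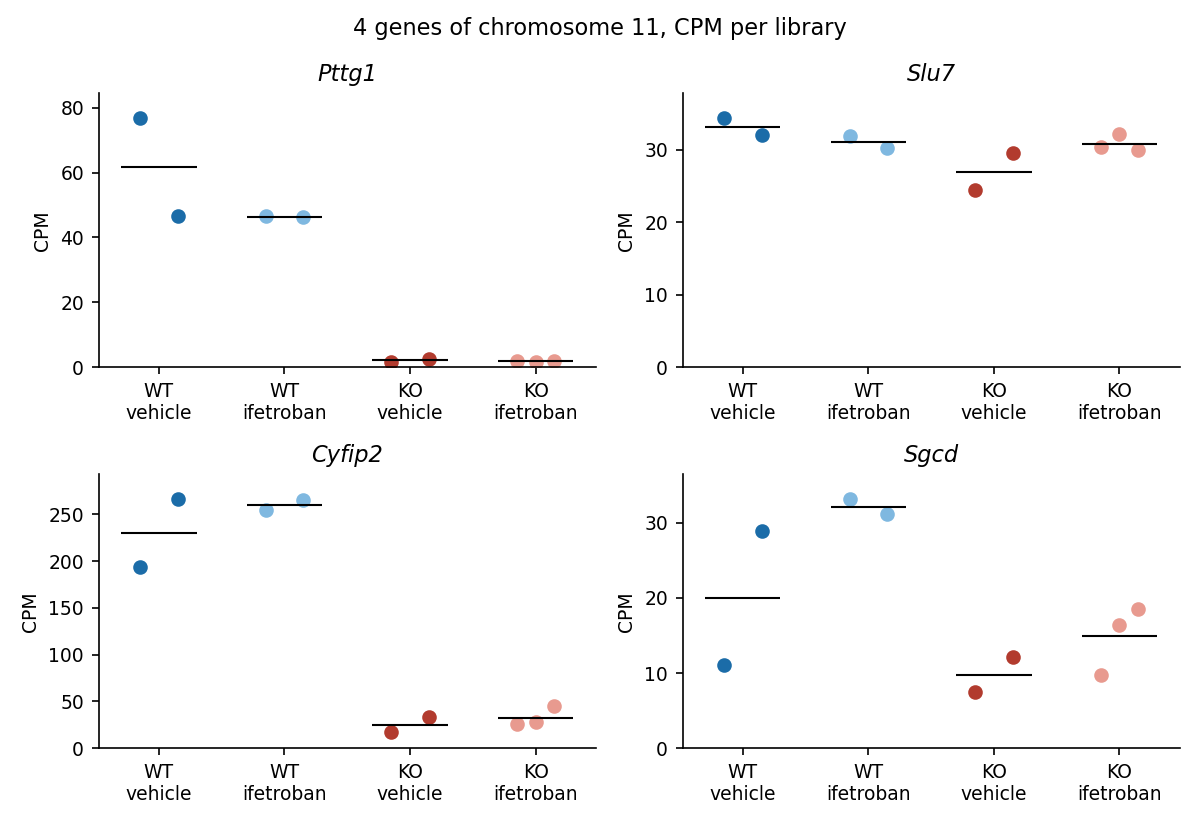
CPM per library of Pttg1, its nearest gene Slu7, Cyfip2 and the targeted gene Sgcd, with axes from 0 and black lines at group means. The genotypes are apart in Pttg1 and Cyfip2 and overlap in Slu7, and in Sgcd the library labelled WT vehicle replicate 1 is placed, with 11.1 CPM, among the KO libraries.

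The genes that work with securin in chromatid separation were tested between the genotypes, and none was called. Of 43 listed, Pttg1 not among them, 41 were tested and 0 were called in KO against WT on average, by edgeR (0.537% of all genes) or DESeq2 (754 of 15261 genes). At the edgeR share, 0 of 41 says little about these genes. Differences were positive for 17 and negative for 24, the median was -0.04 against 0.00 over all genes, and 1 had an unadjusted p under 0.05 (2518 of the 15261 genes). Separase (Espl1) was low throughout, at 0.821, 1.20, 1.96 and 1.07 CPM in WT and 0.884, 1.75, 1.03, 1.66 and 1.51 CPM in KO libraries. The groups overlapped, and its difference was 0.14 ± 0.323 (edgeR adjusted p = 0.85).

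Among the APC/C genes, 14 of 14 subunit genes were tested, with 9 positive and 5 negative differences between -0.30 and 0.31. Anapc7 stood at 0.23 ± 0.115 (edgeR adjusted p = 0.353) and Anapc15 at 0.31 ± 0.17 (0.386). Cdc20, the activator in early mitosis, held 1.18, 1.08, 2.15 and 0.951 CPM in WT and 2.33, 1.99, 1.73, 1.41 and 1.32 CPM in KO libraries, at 0.43 ± 0.281 (0.45). Fzr1, the activator at mitotic exit and in resting cells, ranged from 34.0 to 38.0 CPM in WT and 34.3 to 38.0 CPM in KO libraries, at 0.06 ± 0.102 (0.805).

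Cohesin genes, whose product separase cuts, gave small differences: -0.19 to 0.11 for the 5 ring subunit genes, with 4 of 5 negative. Both loader genes, Nipbl and Mau2, were negative, at -0.24 ± 0.147 and -0.26 ± 0.18 (edgeR adjusted p = 0.422 and 0.473). Pds5b, which regulates cohesin on chromatin, stood at -0.29 ± 0.149 (0.353). Sgo2a, a shugoshin that guards centromeric cohesin, had the smallest p of the list, at -0.69 ± 0.252 (adjusted p = 0.23). It held 10.2, 11.6, 14.3 and 13.3 CPM in WT and 3.12, 8.30, 8.04, 11.8 and 10.3 CPM in KO libraries, lowest in KO vehicle replicate 1. It was -0.44 without that library, and -1.13 without KO vehicle replicate 2, which left that library alone in its group. The 7 spindle checkpoint genes, which delay APC/C action on securin, had 1 positive and 6 negative differences, none called.

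**Figure D5:**
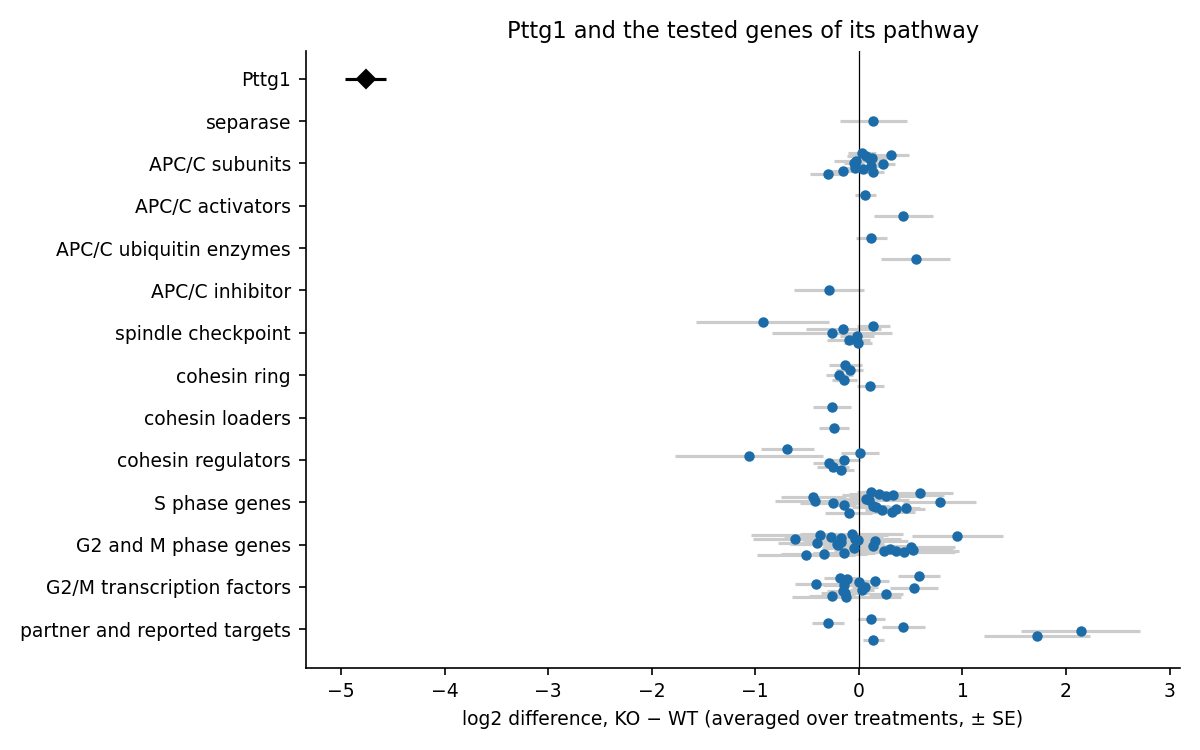
Averaged log2 difference (KO minus WT, ± SE) of Pttg1 (black diamond) and of each tested gene of chromatid separation, the cell cycle, G2/M transcription and securin's partner and reported targets. Pttg1, shown without a test, lies at -4.76, and none of the listed genes was called; Myc at 2.14 and Cdkn1a at 1.72 lie farthest to the right.

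No gene of dividing cells was called between the genotypes either. Of 43 S phase and G2/M genes, all tested, 0 were called in KO against WT on average, by edgeR (0.537% of all genes) or DESeq2 (754 of 15261 genes). At the edgeR share, 0 of 43 says little about these genes. Differences were positive for 23 and negative for 20, the median was 0.10, and 1 had an unadjusted p under 0.05 (2518 of the 15261 genes). The signs differed by treatment: with vehicle 38 were positive and 5 negative (median 0.49), and with ifetroban 10 were positive and 33 negative (median -0.25), none called by edgeR in either. Over all genes 48.5% were positive with vehicle and 51.8% with ifetroban. The split hung on single libraries. Without the library labelled WT vehicle replicate 1, 10 of 24 G2/M genes (median -0.08) and 14 of 19 S phase genes were positive with vehicle. Without WT ifetroban replicate 1, 14 of 24 G2/M genes (median 0.12) and 17 of 19 S phase genes (median 0.28) were positive with ifetroban. The gene with an unadjusted p under 0.05 on average was Mcm6, a subunit of the replicative helicase, at 0.45 ± 0.138 (edgeR adjusted p = 0.168). Tyms, for thymidylate synthase, stood at 0.78 ± 0.355 (0.311) and Cdca8, of the chromosomal passenger complex, at 0.95 ± 0.438 (0.315). Mki67, the Ki-67 antigen gene, held 0.975, 5.83, 11.3 and 3.68 CPM in WT and 2.88, 5.0, 2.57, 3.62 and 3.45 CPM in KO libraries, at -0.51 ± 0.476 (0.602). The mitotic cyclin gene Ccnb1 stood at 0.44 ± 0.49 (0.664) and its kinase gene Cdk1 at 0.24 ± 0.451 (0.813).

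The summed level of the 24 G2/M genes was 65.3, 98.2, 115 and 85.7 CPM in the WT libraries and 52.4, 92.8, 80.4, 99.4 and 77.2 CPM in the KO libraries. Cenpa and Cenpf, both for centromere proteins, made up 50.9% to 83.0% of this sum. The sum of the other 22 genes, a choice made after the values were seen, was 11.1, 30.9, 55.0 and 21.0 CPM in WT and 25.7, 35, 24.4, 22.5 and 21.8 CPM in KO libraries. The genotypes overlapped in both sums. Without KO vehicle replicate 2, which left replicate 1 alone in that group, the averaged difference was -1.13 for Cenpf and 1.06 for Tyms. No other alternative run called either gene in KO against WT on average.

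Signs of these genes under ifetroban were not evenly split, though none was called by edgeR. With no filter on low counts Cenpf was called for ifetroban in KO (1.30, adjusted p = 3.27e-06). In wild type 24 of 24 G2/M genes were positive for ifetroban against vehicle, with a median of 0.57, and in the knockout 3 were positive and 21 negative, with a median of -0.32. Pttg1 had negative values in both genotypes. Single libraries set the wild-type signs: without WT ifetroban replicate 1, 10 of 24 were positive (median -0.07), and without the library labelled WT vehicle replicate 1, 20 were (median 0.16). In the knockout, 11 of 24 were positive without KO vehicle replicate 2 (median -0.24), with Cenpf at 2.74. KO vehicle replicate 1 then stood alone in its group.

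No transcription factor that acts on G2/M promoters was called between the genotypes. Of 16 listed, 15 were tested and 0 called (0.537% of all genes in edgeR), with a median of -0.11. An unadjusted p under 0.05 was found for 2 of the 15, and for 2518 of the 15261 genes tested. At these shares the counts say little about the list. Foxm1, an activator of G2/M genes, stood at -0.12 ± 0.522 (95% interval -1.29 to 1.05, edgeR adjusted p = 0.922). Trp53, whose product represses many of them indirectly, stood at 0.58 ± 0.205 (0.217) and E2f4 at 0.53 ± 0.231 (0.297). Trp53 held 14.6 to 16.1 CPM in WT libraries and 36.4, 18.7, 22.4, 19.1 and 14.7 CPM in KO libraries, highest in KO vehicle replicate 1. Without that library Trp53 was at 0.29. Without KO vehicle replicate 2, which left replicate 1 alone in that group, it was at 0.79.

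Of the partner gene and 5 genes reported as responsive to securin, 6 were tested and 0 called (0.537% of all genes in edgeR), with 5 positive differences. At that share, 0 of 6 says little about these genes. An unadjusted p under 0.05 was found for 2 of the 6, and for 2518 of the 15261 genes tested. Pttg1ip, for the protein that binds securin and carries it to the nucleus, held 116 to 128 CPM in WT and 119 to 151 CPM in KO libraries, at 0.14 ± 0.105 (edgeR adjusted p = 0.512). Myc, a growth-promoting transcription factor gene, held 2.82, 2.47, 2.80 and 2.18 CPM in WT and 37.5, 4.09, 8.98, 6.35 and 3.14 CPM in KO libraries. Every KO library lay above every WT library, as for 5.03% of all genes, and the difference was 2.14 ± 0.574 (adjusted p = 0.126). Cdkn1a, the p21 cell cycle inhibitor gene, held 29.1, 19.3, 12.7 and 20.6 CPM in WT and 162, 19.2, 56.1, 54.8 and 34.3 CPM in KO libraries, at 1.72 ± 0.508 (0.156), and its groups overlapped.

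KO vehicle replicate 1 was highest for both Myc and Cdkn1a. Without it Myc stood at 0.95 and Cdkn1a at 0.59. Without KO vehicle replicate 2, which left replicate 1 alone in that group, they stood at 2.56 and 2.14. Fgf2, a growth factor gene, stood at 0.43 ± 0.205 (edgeR adjusted p = 0.328), and the angiogenic factor gene Vegfa at -0.30 ± 0.152 (0.346). Pttg1 in KO vehicle replicate 1, at 1.72 CPM, lay inside the range of the other KO libraries.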

How the data were processed

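The deposited values are whole-number read counts by gene, 1 table a library, not normalized. The tools listed per the submitters' processing notes are STAR 2.5.2b and HTSeq, with build GRCm38. The tables have the layout of STAR's gene counts. The annotation release is not given in the sources used here. The reverse-strand column, with 14.5 times the counts of the forward one, was used. Rows without a gene (26.6% to 31.9% of reads) were left out. Symbols, lengths and coordinates came from GENCODE vM21 for 49326 identifiers. Genes were tested with edgeR 4.0.16 in R 4.3.3 (TMM, filterByExpr, quasi-likelihood F test, 1 coefficient per group over 9 libraries, prior count 0.125, Benjamini-Hochberg over 15261 genes, two-sided, called under 0.05). DESeq2 1.42.0, other filters, normalizations and columns, a length-class term, a replicate block and leaving out libraries were alternatives. SEs were calculated back from the F statistic and are approximate. On simulated counts 106 of 109 genes with a log2 change of 4 were recovered, with 9 false calls. This figure does not cover smaller changes, such as those of most listed genes, and the simulation held no split by transcript length. Pttg1 and the gene lists were chosen with earlier results of these data known. Named genes were a set group, the tested neighbours within 1 Mb, members of each list with the smallest p, and the 8 with the widest gap; others are marked.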

Additional observations from a re-analysis of the deposited data

How the results depend on the processing

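Pttg1 kept its direction between the genotypes in every alternative run, with averaged log2 differences of -4.93 to -4.44. The gene was chosen for this difference and its genotypes do not overlap. The alternatives could therefore hardly turn the direction, and they describe only its size. Leaving out 1 library gave -5.20 to -4.46 with vehicle, -4.70 to -4.58 with ifetroban and -4.93 to -4.56 on average. The vehicle difference moved to -4.24 without the library labelled WT vehicle replicate 1 together with KO vehicle replicate 1, and the ifetroban difference to -4.80 with a term for the length class. Tests of ifetroban on Pttg1 passed the threshold in no alternative, but signs turned. The knockout value was 0.13 with the length-class term and -0.41 to 0.10 when 1 library was left out. The interaction was -0.42 without both named libraries and -0.19 to 0.54 when 1 was left out. In wild type, leaving out 1 library gave -0.72 to 0.00. With a replicate block the values were -0.39, -0.24 and 0.15 for ifetroban in WT, in KO and the interaction, and it changed no call. Deviations of same-numbered libraries correlated at 0.001 to 0.478. In groups of 2 libraries the deviations of both are mirror images, so these values cannot show whether the numbers pair the libraries. Of the chromatid separation genes 1 was called with no filter on low counts (Sgo2a), and 1 had an unadjusted p under 0.05. Of the proliferation genes 1 had an unadjusted p under 0.05. Leaving out 1 library of a group of 2 left a single library in it, so calls of listed genes in such fits are not counted here. Neighbours gave 1 with no filter (Adra1b, -0.48, adjusted p = 0.0388) and 3 in the 5 Mb window. Over all genes DESeq2 called 754 on average against 82 by edgeR. Groups of 2 or 3 libraries limit every test, and the causes of these shifts were not tested. Leaving each library out of the counts of signs was chosen after seeing the data.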
